A study of Mus musculus with 15 samples.

Results

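S100 proteins and annexins are calcium-responsive proteins that meet at membranes. The 10 genes described here are 7 S100 genes (S100a1, S100a4, S100a6, S100a10, S100a11, S100a13 and S100a16) and 3 annexin genes (Anxa1, Anxa2 and Anxa5), taken by symbol from a count table of 55341 genes. They were read in the 6DT1 line, mouse mammary cancer cells from the FVB/N1 strain, with or without a knockout of the chloride intracellular channel gene Clic4. The groups were knockout cells given hydrogen peroxide (H2O2) at 1 µM over 24 h (3 libraries, replicates 5, 7 and 8), untreated knockout cells (4 libraries, replicates 1 to 4), wild-type cells given the same H2O2 (4 libraries, replicates 13 to 16) and untreated wild-type cells (4 libraries, replicates 9 to 12). All 15 libraries were of polyadenylated RNA and held 12.31 to 16.03 M counts. Nothing in the labels says that replicates were separate cultures or whether the knockout was 1 clone, so p-values measure the spread between these libraries, which may be technical.

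An S100 protein is a small dimer built from EF-hand calcium-binding loops, and calcium exposes a surface with which it grips a target protein. An annexin binds acidic phospholipids when calcium rises, and several annexins carry a short N-terminal tail that an S100 dimer can hold. The best known pair is annexin A2 with S100A10, which join in a heterotetramer at the plasma membrane. In carcinoma cells members of both families are studied for their parts in motility, plasminogen capture, membrane repair and vesicle traffic.

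The labels were checked on Clic4 itself. It stood at 68.4 to 75.9 normalised CPM (TMM-scaled counts per M) in treated knockout cells and at 313.0 to 316.8 CPM in treated wild-type cells. Without treatment it stood at 64.2 to 75.1 CPM in knockout cells and at 315.9 to 326.7 CPM in wild-type cells. The untreated wild-type library of replicate 9 has a genotype field that reads knockout, against its title and source, and its 326.7 CPM of Clic4 lay with the wild type. The same library held 305 counts of the neutrophil gene Mpo and 67 of the leukocyte gene Ptprc, against at most 1 count of each in the other 14 libraries. Its summed lymphoid markers were at 1.35 CPM, against at most 0.0685 elsewhere, and its erythroid markers at 1.01 CPM, against at most 0.209 elsewhere. Leaving out this library changed no untreated call among the 10 genes. Values without it are given for S100a16, S100a11, S100a8 and Lcp1, and the other values of untreated wild-type cells include it. In untreated knockout cells replicate 4 stood above the other 3 libraries for 6 of the 10 genes and below them for 1, and leaving out replicates 4 and 9 together changed no call among the 10 genes. Of epithelial markers the cells carried the keratins Krt8, Krt18 and Krt19, while Epcam and Cdh1 were at 0 to 5 counts summed over each group. The summed CPM of 7 epithelial markers was 968 to 1030 in treated knockout, 922 to 981 in untreated knockout, 1020 to 1060 in treated wild-type and 997 to 1060 in untreated wild-type libraries. Behind these similar sums Krt19 was higher (log2 1.56 with H2O2 and 1.52 without it) and Krt18 lower (−1.03 and −1.12) in knockout cells. For 8 fibroblast and mesenchymal markers, of which Vim held nearly all counts, it was 4100 to 4430, 4050 to 4350, 2680 to 2860 and 2670 to 2730 in the same order of groups. The fibroblast marker Thy1 was at 0 or 1 count summed over each group. The mesenchymal sum, in effect that of Vim, was therefore higher in knockout cells (log2 0.63 for Vim in both settings), while the other 2 tested markers of that list, Pdgfra and Col1a1, were called lower (−0.75 and −1.28 with H2O2, −0.83 and −0.92 without it). For 10 myeloid markers, of which Cd68 held most counts, the sum was 292 to 309, 295 to 327, 413 to 438 and 401 to 452 CPM, and for 6 endothelial markers, led by Vwf in wild-type cells, it was 3.85 to 4.31, 3.37 to 4.11, 23.2 to 25.9 and 23.1 to 25.0 CPM, again in that order. Both sums were lower in knockout cells, through Cd68 (log2 −0.58 with H2O2 and −0.47 without it) and Vwf (−3.58 without treatment, called lower in both settings). By contrast, Cd14 (0.60 and 0.59) and the endothelial gene Cdh5 (1.02 and 1.21) were called higher. The third tested myeloid marker, Itgam, was called higher with H2O2 (log2 2.03). Without H2O2 it was not called (0.53), with 96 of its wild-type counts in replicate 9. Ptprc, Elane and Mpo were at 0 in both knockout groups and at no more than 1 count in treated wild-type cells. In untreated wild-type cells nearly all counts of these 3 genes were in replicate 9. Emcn was at 0 in all groups. The part of these marker differences in the S100 and annexin differences was not tested.

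Between genotypes these genes differed in both directions. Without treatment S100a4, S100a6, S100a16 and Anxa1 were higher in knockout than in wild-type cells, S100a1, S100a11, S100a13 and Anxa5 were lower, and S100a10 and Anxa2 did not pass the test. Under H2O2 the same 4 were higher, the same 4 were lower, and S100a10 was lower as well. All 10 genes passed the filter on low counts, S100a16 only through the knockout libraries. The test was edgeR's quasi-likelihood test with Benjamini-Hochberg adjustment over 13085 genes, called under 0.05. It called 9 of the 10 genes under H2O2, where it called 65.4% of all genes (33.0% higher and 32.4% lower), and 8 of 10 without treatment, where it called 66.8% (33.9% higher and 32.9% lower). The libraries of the genotypes did not overlap for 8 of the 10 genes in either setting, beside 66.4% of all genes under H2O2 and 58.5% without treatment. A call by itself therefore did not set these genes apart from the rest. Their median log2 fold change was −0.08 under H2O2 and −0.03 without treatment, beside 0.0 over all genes tested in each.

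**Figure D1:**
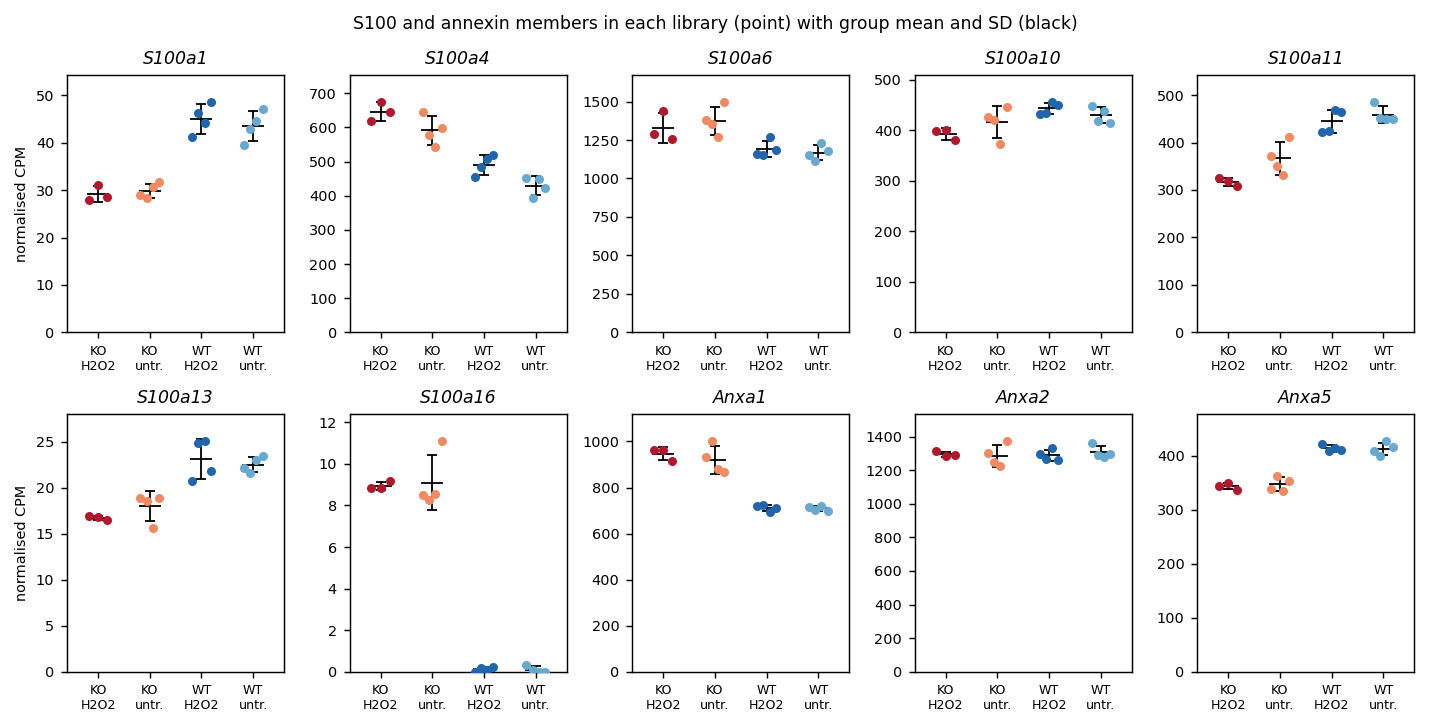
Normalised CPM (vertical axes, starting at 0) of the 10 S100 and annexin genes in each library (points) of the treated and untreated knockout and the treated and untreated wild-type cells, with the group mean and SD in black. S100a16 sits between 8.28 and 11.1 CPM in knockout libraries and at or below 0.338 CPM in wild-type libraries, S100a4 and Anxa1 are higher and S100a1, S100a11, S100a13 and Anxa5 are lower in all knockout libraries than in all wild-type libraries, and Anxa2 overlaps throughout.

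S100a16 made the largest change of the 10 genes. It encodes an atypical S100 protein that is widely expressed in human tissues, and it lies on the plus strand of chromosome 3 (90537254–90543151, mm10). Under H2O2 it had 127, 129 and 112 counts in the knockout libraries, against 0, 3, 1 and 3 in the wild-type libraries. Without treatment it had 111, 121, 135 and 166 counts in the knockout libraries, against 5, 1, 0 and 0 in the wild-type libraries. Every knockout library was far above every wild-type library. In 7 of the 8 wild-type libraries S100a16 was at or below the 3 counts that a count of 0 allows, and the exception with 5 counts was replicate 9, the library that also held transcripts of neutrophils and other blood cells. The ratio of CPM was 75.8 under H2O2 (95% exact binomial interval 36.4 to 189.7, from 368 counts against 7) and 89.7 without treatment (40.9 to 245.4, from 533 counts against 6). Without replicate 9 the untreated ratio was 402.7, with an interval of 72.0 to 15940 from 533 counts against 1. These intervals cover counting error only. In bulk RNA, more cells that express the gene and more of its RNA per cell cannot be told apart. The adjusted p was 2.36e-14 under H2O2 and 6.66e-15 without treatment, for a gene that passed the filter on low counts only through the knockout libraries. Even in knockout cells S100a16 was among the scarce members, at 8.95 ± 0.188 CPM with H2O2 (SD, n = 3) and 9.10 ± 1.33 CPM without it (SD, n = 4).

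RefSeq gives S100a16 2 start sites, and both promoter windows are shown because this gene had a clear signal in knockout cells and near 0 counts in wild-type cells. Each window runs from 250 bases before the start to 50 after it, on the gene's own strand, 5′ to 3′, on GRCm38.p6 (mm10), and capitals mark motif matches.
S100a16, first start, chr3:90537004-90537303, plus strand: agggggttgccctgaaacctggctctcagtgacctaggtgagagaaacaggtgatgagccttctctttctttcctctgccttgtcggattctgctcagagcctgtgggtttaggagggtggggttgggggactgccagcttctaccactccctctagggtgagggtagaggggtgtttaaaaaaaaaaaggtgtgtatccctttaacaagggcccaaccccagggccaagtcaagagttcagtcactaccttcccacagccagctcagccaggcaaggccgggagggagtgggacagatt
S100a16, second start, chr3:90540896-90541195, plus strand: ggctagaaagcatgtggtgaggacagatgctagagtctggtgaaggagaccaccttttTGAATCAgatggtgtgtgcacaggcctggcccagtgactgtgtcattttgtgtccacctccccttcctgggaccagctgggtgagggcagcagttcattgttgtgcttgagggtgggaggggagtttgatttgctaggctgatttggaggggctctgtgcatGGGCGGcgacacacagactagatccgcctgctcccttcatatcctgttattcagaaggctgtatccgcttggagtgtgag
The motifs searched on both strands of every member window were TATAAA (the TATA box), CCAAT (the CCAAT box), GGGCGG (the GC box), TGANTCA (the AP-1 site) and TGACGTCA (the cAMP response element). None of these letters is in the first S100a16 window. The second window holds GGGCGG 30 bases before the start, a motif found in 35.7% of 32841 RefSeq promoter windows, and an AP-1 match 192 bases before it, a motif found in 7.81%. The counts are summed per gene and do not tell the 2 starts apart. Both windows are poor in CpG, with 2 and 4 CpG dinucleotides against a median of 7 over all windows.

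S100a4, S100a6 and Anxa1 were abundant genes with smaller increases. S100a4, also called metastasin for its association with tumour spread, encodes a partner of non-muscle myosin and lies on chromosome 3 (90603771–90606045, plus strand). Under H2O2 it stood at 619.4, 674.0 and 646.5 CPM in knockout libraries, against 453.5, 484.3, 506.7 and 518.9 CPM in wild-type libraries. Without treatment it stood at 646.5, 577.0, 543.0 and 597.8 CPM in knockout libraries, against 451.1, 393.6, 450.1 and 423.2 CPM in wild-type libraries. No knockout library fell within the wild-type range in either setting. The log2 fold change of S100a4 was 0.40 (SE 0.057, adjusted p 3.28e-06) with H2O2 and 0.46 (SE 0.053, adjusted p 1.53e-07) without it. Its promoter is shown as that of the abundant S100 gene with the largest increase.
S100a4, chr3:90603520-90603819, plus strand: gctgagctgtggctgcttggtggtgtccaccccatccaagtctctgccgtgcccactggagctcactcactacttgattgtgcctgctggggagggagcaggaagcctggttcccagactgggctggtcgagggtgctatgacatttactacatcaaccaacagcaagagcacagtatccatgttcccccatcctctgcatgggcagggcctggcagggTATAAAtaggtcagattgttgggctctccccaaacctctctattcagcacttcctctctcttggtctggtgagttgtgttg
The capitals mark a TATA box that begins 31 bases before the start, and TATAAA is in 13.6% of all promoter windows. The window holds 2 CpG.

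S100a6, or calcyclin, binds the ubiquitin ligase adaptor CacyBP and several annexins, and lies near S100a4, with S100a5 between them (chromosome 3, 90612882–90624181, plus strand). It had 1292, 1441 and 1257 CPM in treated knockout libraries, against 1162, 1153, 1270 and 1186 CPM in treated wild-type libraries. The lowest knockout value was under the highest wild-type value, so the treated groups overlapped. In untreated cells S100a6 had 1377, 1352, 1271 and 1496 CPM in knockout libraries, against 1153, 1114, 1232 and 1176 CPM in wild-type libraries, with no overlap. The log2 fold change was 0.16 (SE 0.052, adjusted p 0.0106) with H2O2 and 0.23 (SE 0.048, adjusted p 0.000173) without it. The call under H2O2 rested on the knockout library of replicate 7, without which the log2 fold change was 0.10 (adjusted p 0.120).

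Anxa1 encodes the glucocorticoid-induced annexin A1, an anti-inflammatory ligand of formyl peptide receptors and a partner of S100A11, and lies on the minus strand of chromosome 19 (20373428–20390944). It stood at 962.5, 963.8 and 914.5 CPM in treated knockout libraries, against 721.5, 723.0, 694.4 and 710.7 CPM in treated wild-type libraries. It stood at 930.4, 1000, 878.6 and 868.1 CPM in untreated knockout libraries, against 714.3, 704.2, 720.8 and 699.0 CPM in untreated wild-type libraries. The gap between genotypes was wider than the spread within either. The log2 fold change of Anxa1 was 0.41 (SE 0.041, adjusted p 9.70e-10) with H2O2 and 0.37 (SE 0.038, adjusted p 1.32e-09) without it.

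S100a1 and S100a13 are neighbours that point away from each other, and both were lower in knockout cells. S100a1, known from heart and skeletal muscle as a regulator of calcium release, lies on the minus strand of chromosome 3 (90511034–90514392). S100a13, which takes part in the non-classical release of FGF1 and interleukin-1 alpha, lies on the plus strand (90514435–90524581), and the 2 annotated starts are 43 bp apart. Treated knockout libraries had 27.9, 31.0 and 28.6 CPM of S100a1, against 41.2, 46.4, 44.2 and 48.6 CPM in treated wild-type libraries. Untreated knockout libraries had 29.0, 28.3, 30.6 and 31.7 CPM of S100a1, against 39.6, 42.9, 44.6 and 47.2 CPM in untreated wild-type libraries. No library of either genotype lay in the range of the other. S100a1 fell by 0.63 on the log2 scale with H2O2 (SE 0.068, adjusted p 4.75e-09) and by 0.55 without it (SE 0.062, adjusted p 9.83e-09).

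For S100a13 the treated knockout libraries had 16.9, 16.8 and 16.5 CPM, against 20.7, 24.9, 25.0 and 21.8 CPM in the treated wild-type libraries. The untreated knockout libraries had 18.9, 18.6, 15.6 and 18.9 CPM, against 22.1, 21.5, 23.0 and 23.4 CPM in wild-type libraries without treatment. Again the genotypes did not overlap, although S100a13 has few counts and the 15.6 CPM of replicate 3 stood below the other untreated knockout values. S100a13 fell by 0.47 with H2O2 (SE 0.081, adjusted p 1.30e-05) and by 0.33 without it (SE 0.074, adjusted p 0.000318). The RefSeq windows of S100a13 and S100a1 share 204 bp, read on opposite strands, and the S100a13 window is shown as the stretch from which both are transcribed.
S100a13, chr3:90514185-90514484, plus strand: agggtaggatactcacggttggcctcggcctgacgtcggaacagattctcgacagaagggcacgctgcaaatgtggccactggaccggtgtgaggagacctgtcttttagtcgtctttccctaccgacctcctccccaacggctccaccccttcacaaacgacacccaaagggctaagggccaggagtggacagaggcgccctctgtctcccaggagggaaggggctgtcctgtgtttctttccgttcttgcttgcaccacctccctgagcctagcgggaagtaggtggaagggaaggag
No motif of those searched is in it or in the S100a1 window, hence no capitals, and the windows hold 14 and 11 CpG for S100a13 and S100a1 in turn.

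S100a11 and Anxa5 were abundant genes that were lower in both settings. S100a11, or calgizzarin, binds annexin A1 and has been tied to membrane repair, and lies on chromosome 3 (93520488–93526287, plus strand). It stood at 324.8, 319.8 and 308.4 CPM in treated knockout libraries, against 422.6, 423.9, 467.5 and 463.7 CPM in treated wild-type libraries. In untreated cells it stood at 371.4, 350.8, 330.5 and 412.6 CPM in knockout libraries, against 485.0, 451.0, 449.2 and 450.5 CPM in wild-type libraries. All knockout libraries were below all wild-type libraries, and the highest untreated knockout value, 412.6 CPM in replicate 4, came nearest. S100a11 fell by 0.48 with H2O2 (SE 0.058, adjusted p 2.22e-07) and by 0.33 without it (SE 0.053, adjusted p 1.36e-05). Anxa1 and S100a11, whose products bind each other, thus moved in opposite directions. The S100a11 promoter is shown beside that of S100a4, as the abundant S100 gene with the largest decrease.
S100a11, chr3:93520246-93520545, plus strand: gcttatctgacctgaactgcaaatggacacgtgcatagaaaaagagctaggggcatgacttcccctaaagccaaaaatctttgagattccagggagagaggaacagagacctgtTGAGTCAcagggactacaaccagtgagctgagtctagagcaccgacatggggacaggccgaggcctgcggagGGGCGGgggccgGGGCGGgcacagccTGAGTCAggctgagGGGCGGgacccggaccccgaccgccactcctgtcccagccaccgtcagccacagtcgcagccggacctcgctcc
The capitals mark 3 GC boxes at 64, 52 and 24 bases before the start and 2 AP-1 matches at 136 and 38 bases before it. The window has no TATA box and holds 15 CpG.

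Anxa5 encodes annexin A5, known for its binding of phosphatidylserine on dying cells, and lies on chromosome 3 far from the S100 genes (36448923–36475894, minus strand). It had 344.3, 349.4 and 337.6 CPM in treated knockout libraries, against 423.0, 408.2, 414.2 and 410.4 CPM in treated wild-type libraries. It had 338.7, 363.6, 335.0 and 354.3 CPM in untreated knockout libraries, against 409.1, 400.5, 426.8 and 416.6 CPM in untreated wild-type libraries. The genotypes were again apart. Anxa5 fell by 0.27 with H2O2 (SE 0.037, adjusted p 3.98e-07) and by 0.25 without it (SE 0.034, adjusted p 3.25e-07).

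**Figure D2:**
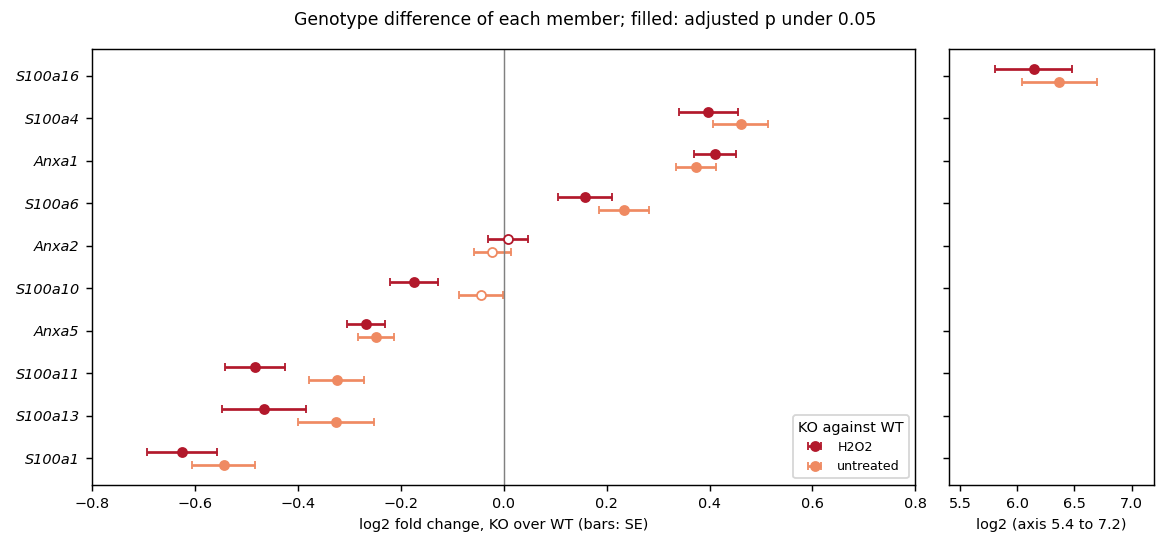
Log2 fold change of knockout over wild type (horizontal axis, bars SE) for each S100 and annexin gene with H2O2 (dark red) and without it (orange), filled where the adjusted p was under 0.05; the right panel has its own scale for S100a16. S100a16 lies at 6.14 and 6.37, the other called genes lie between −0.63 and 0.46, and Anxa2 lies at 0.01 and −0.02.

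Of Anxa2 and S100a10, which form the annexin A2 heterotetramer, Anxa2 was called in neither setting and S100a10 was called lower with H2O2. Anxa2, on chromosome 9 (69453620–69491795, plus strand), stood at 1312, 1284 and 1290 CPM in treated knockout libraries, against 1295, 1269, 1330 and 1259 CPM in treated wild-type libraries. In untreated cells it stood at 1305, 1246, 1222 and 1371 CPM in knockout libraries, against 1359, 1290, 1280 and 1295 CPM in wild-type libraries. The ranges overlapped in both settings. The log2 fold change was 0.01 with H2O2 (95% interval −0.07 to 0.08, adjusted p 0.868) and −0.02 without it (−0.09 to 0.05, adjusted p 0.602).

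S100a10, which has lost calcium binding and stays in its active shape, lies on chromosome 3 (93555080–93564643, plus strand). It stood at 398.4, 400.5 and 380.1 CPM in treated knockout libraries, against 431.9, 435.0, 456.0 and 450.9 CPM in treated wild-type libraries. It stood at 426.7, 420.6, 372.6 and 446.6 CPM in untreated knockout libraries, against 448.2, 418.4, 438.1 and 414.5 CPM in untreated wild-type libraries. The treated groups were apart and the untreated groups overlapped. S100a10 fell by 0.17 with H2O2 (SE 0.047, adjusted p 0.00179), and its log2 fold change without treatment was −0.05 (95% interval −0.13 to 0.04, adjusted p 0.362). The S100a10 difference was not shown to depend on treatment, with an interaction of −0.13 (SE 0.063, adjusted p 0.807).

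Set per length, the ratio of S100a10 to Anxa2 was close to 1 in every group. That level rests on the lengths that the deposited values imply, 770 bp for S100a10 and 2270 bp for Anxa2. The plain ratio of counts averaged 0.303 in treated and 0.324 in untreated knockout cells, and 0.344 in treated and 0.329 in untreated wild-type cells. Neither ratio measures the proteins. From the deposited RPKM (reads per kilobase per M counts) the ratio per length was 0.894 ± 0.0255 in treated knockout cells (SD, n = 3) and 1.01 ± 0.0298 in treated wild-type cells (SD, n = 4). In untreated cells it was 0.954 ± 0.0402 in knockout and 0.969 ± 0.0282 in wild type (SD, n = 4 each). The treated knockout libraries, at 0.894, 0.919 and 0.868, were all below the treated wild-type libraries, at 0.982, 1.01, 1.01 and 1.05. The mean log2 difference was −0.18, with an exact two-sided permutation p of 0.0571 (0.114 adjusted over 4 such comparisons), which is the smallest p that 3 against 4 libraries allow. For untreated knockout against wild type the difference was −0.02 (exact permutation p 0.571). For H2O2 against untreated it was −0.09 in knockout cells (exact permutation p 0.114) and 0.07 in wild-type cells (exact permutation p 0.0571), and none passed after adjustment.

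In the order of levels per length S100a4 held rank 2 in untreated knockout cells and rank 5 in untreated wild-type cells, while with H2O2 it held rank 2 in both genotypes. In untreated knockout cells S100a6 led at 1289 ± 90.4 RPKM, S100a4 followed at 725 ± 53.1, and then came Anxa2 (559 ± 30.4), S100a10 (533 ± 40.8) and S100a11 (447 ± 44.0), whose neighbours in that order overlapped (SD, n = 4). In untreated wild-type cells S100a6 led at 1121 ± 44.6 RPKM, and Anxa2 (580 ± 17.1), S100a11 (573 ± 22.9), S100a10 (562 ± 21.7) and S100a4 (539 ± 33.7) followed with overlapping ranges (SD, n = 4). S100a4 thus stood apart above Anxa2 and S100a10 in untreated knockout cells, while in untreated wild-type cells its mean was below theirs and the ranges overlapped. Anxa5 (366 ± 14.0 RPKM) and Anxa1 (335 ± 21.0) overlapped in untreated knockout cells, whereas in untreated wild-type cells Anxa5 (444 ± 10.8) was apart from Anxa1 (264 ± 3.92). Their order rests on the lengths that the RPKM imply, 938 bp for Anxa5 and 2706 bp for Anxa1. In CPM, Anxa1 was above Anxa5 in every library. The other ranks depend on such lengths too, and whether these fit the transcripts of these cells was not tested. S100a1, S100a13 and S100a16 closed the order in every group, at 30.6, 14.8 and 5.99 RPKM in untreated knockout cells and at 45.7, 19.0 and 0.0689 RPKM in untreated wild-type cells. With H2O2 the knockout order was S100a6, S100a4, Anxa2, S100a10, S100a11, Anxa5, Anxa1, all with ranges apart, while in treated wild-type cells S100a4, S100a10, Anxa2 and S100a11 followed S100a6 in that order with overlapping ranges. Summed over the 10 genes the share of all counts was 0.529 ± 0.0141% in treated and 0.528 ± 0.0258% in untreated knockout cells, and 0.510 ± 0.0099% in treated and 0.502 ± 0.0114% in untreated wild-type cells.

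H2O2 changed none of the 10 genes by the test in either genotype. It called 7 of all genes in knockout cells (0.0535%) and 2 in wild-type cells (0.0153%), with 1041 and 847 at an unadjusted p under 0.05. DESeq2 called 53 and 9, but gave no adjusted p to 9640 of the 13085 genes in knockout cells and to 5 in wild-type cells. Its adjustment in knockout cells thus covered far fewer genes than that of edgeR. S100a11 came closest in knockout cells, where its 3 treated libraries (308.4 to 324.8 CPM) lay under its 4 untreated libraries (330.5 to 412.6 CPM). The log2 fold change was −0.21 (SE 0.058, adjusted p 0.279 by edgeR and 0.0442 by DESeq2), and 7.71% of all genes had no overlap in this comparison. S100a4 came closest in wild-type cells, where its treated libraries (453.5 to 518.9 CPM) lay above its untreated libraries (393.6 to 451.1 CPM). The S100a4 log2 fold change there was 0.19 (SE 0.053, adjusted p 0.497), and 3.81% of all genes had no overlap in this comparison either. In knockout cells S100a4 gave 0.13 (SE 0.057, adjusted p 0.586), with overlap. Apart from S100a16 in wild-type cells, where 7 counts against 6 allow no useful estimate, the other log2 fold changes lay between −0.10 and 0.05. No genotype difference of the 10 genes changed with treatment by the interaction test, which called 0 genes of 13085 (0.0%, with 808 at an unadjusted p under 0.05). DESeq2 called 15 for the interaction and gave no adjusted p to 5581 genes. The interaction estimates of S100a11, S100a10 and S100a13 were −0.16, −0.13 and −0.14, with adjusted p of 0.807, 0.807 and 0.910.

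The 7 S100 genes sit in the S100 cluster of chromosome 3, and the genes around them moved in both directions. From S100a1 to S100a10 and 250 kb to either side the annotation holds 147 genes, of which 27 were tested. Under H2O2 10 were higher and 11 lower in knockout cells, with a median log2 fold change of 0.0, and without treatment 10 were higher and 10 lower, with a median of 0.05. Over all genes 33.0% were higher and 32.4% lower under H2O2, and 33.9% and 32.9% without treatment. At least 2-fold changes were called without treatment in 8, namely Dennd4b, S100a16, S100a7a, S100a8, Sprr1b, Sprr1a, Ivl and Lce1g, the last 4 being genes of the skin barrier. Over all genes 13.3% were called at that size without treatment. Under H2O2 it was 6, all but S100a8 and Sprr1a, beside 13.9% of all genes. S100a16 and S100a7a passed the filter on low counts through 1 genotype only. Ivl and Lce1g were scarce, at 0.152 and 0.423 CPM in untreated knockout against 0.714 and 2.2 CPM in untreated wild-type cells. A gene near 0 in 1 genotype passes the filter only if it is higher in the other, which favours a call of this size. S100a14, whose start is 10.4 kb from that of S100a16, stayed at 0.165 ± 0.0991 CPM in treated and 0.0896 ± 0.106 CPM in untreated knockout cells, and 0.0527 ± 0.0703 CPM in treated and 0.0688 ± 0.0579 CPM in untreated wild-type cells (SD), which was too low to test. Genes on each side of S100a16 moved in both directions. On one side S100a4 and S100a6 were higher, but S100a11 and S100a7a were lower. On the other side S100a1 and S100a13 were lower, but Dennd4b, Npr1, Ilf2 and Chtop were higher.

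**Figure D3:**
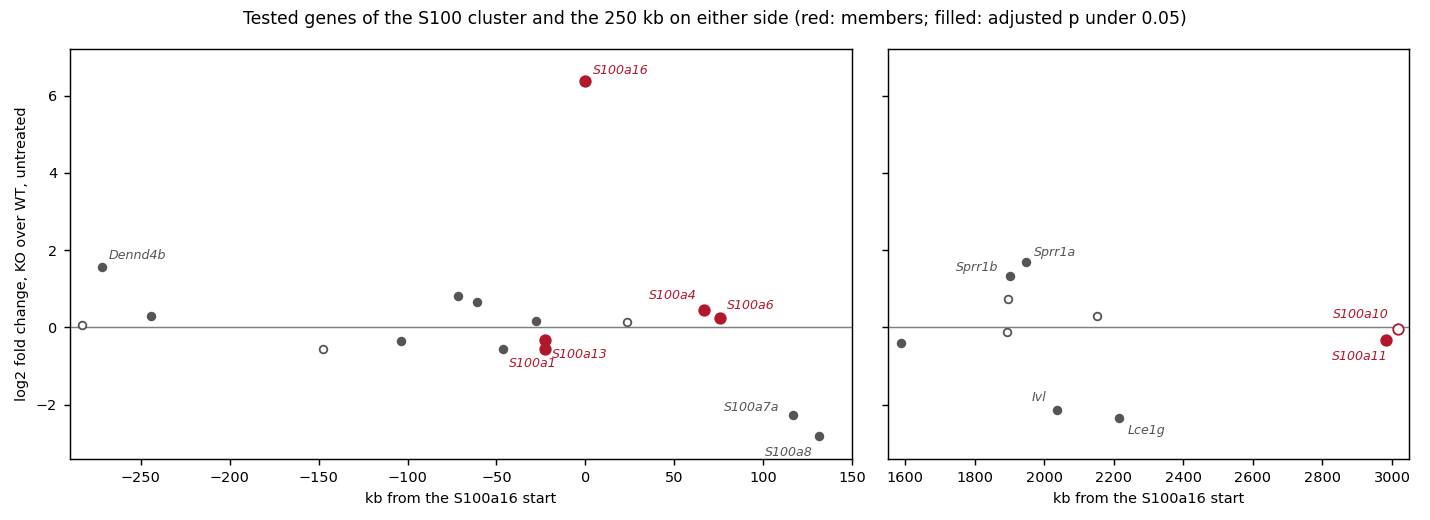
Log2 fold change of knockout over wild type without treatment (vertical axis) against distance in kb from the S100a16 start (horizontal axes, 2 stretches) for the 27 tested genes of the S100 cluster and its flanks; S100 genes of the set are red, and filled points had an adjusted p under 0.05. S100a16 at 6.37 has S100a13 at −0.33 and S100a1 at −0.55 on one side and S100a4 at 0.46 and S100a6 at 0.23 on the other. Higher and lower genes lie on both sides, among them Dennd4b at 1.57 on the S100a1 side and S100a7a at −2.26 on the S100a4 side.

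Promoter CpG number split the called genes of the set by direction. RefSeq windows were found for 9 of the 10 genes (S100a10 had none), 10 windows in all. The higher genes had 2 (S100a4), 3 (Anxa1), 6 (S100a6) and 2 and 4 (S100a16) CpG, and the lower genes had 11 (S100a1), 14 (S100a13), 15 (S100a11) and 16 (Anxa5), with Anxa2 at 13. TATA boxes were found in S100a4 and Anxa1, which were higher, and in Anxa2. The windows of S100a1 and S100a13 share 204 bp, so their CpG numbers are not separate observations. Outside the set Anxa8, with 5 CpG in its highest window, was lower in untreated knockout cells (log2 −0.76), against the split. Anxa7 and Anxa9, with 19 and 36 CpG, were lower too. The split is a description of few genes that was noticed after their values were seen, and tested genes at large did not show it. Of 865 genes with at most 6 CpG in every window, 31.9% were higher and 40.6% lower in untreated knockout cells. Of 7253 genes with at least 11 CpG in every window, 35.9% were higher and 32.5% lower. Over the 9576 genes with a window the shares were 35.0% and 34.1%.

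**Figure D4:**
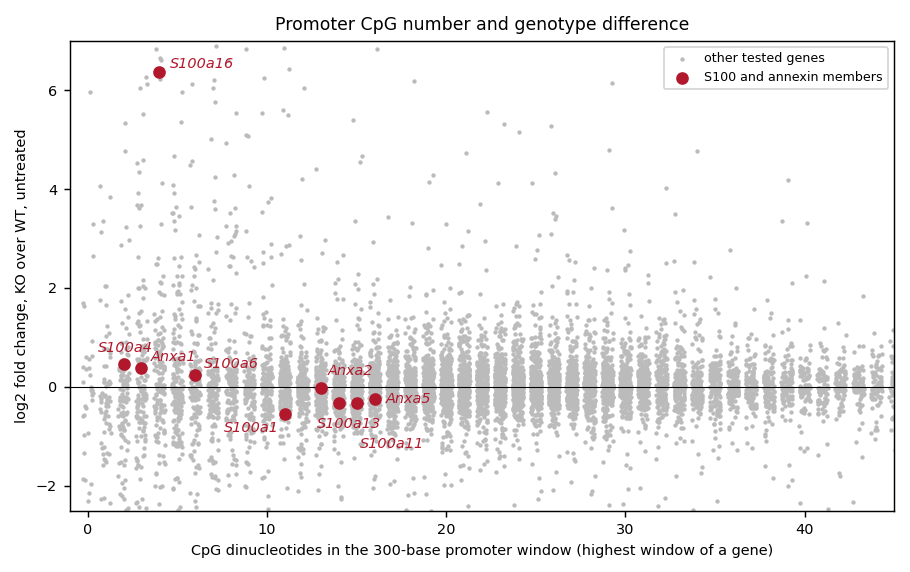
Number of CpG in the promoter window (horizontal axis, the highest window where a gene has several, points spread sideways by a small random shift) against log2 fold change of knockout over wild type without treatment (vertical axis) for 9576 tested genes; 591 genes beyond the axes are not drawn. The higher S100 and annexin genes (red) lie at 6 CpG or fewer and the lower ones at 11 or more, while the other genes (grey) lie on both sides of 0 at every CpG number.

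Of the other 7 annexins tested, 4 were lower in both settings, Anxa6 was higher under H2O2 and not called without it, and 2 were not called. Anxa3 averaged 143 ± 2.15 CPM in treated knockout and 247 ± 7.01 CPM in treated wild-type cells, and 137 ± 7.33 CPM in untreated knockout and 249 ± 6.72 CPM in untreated wild-type cells (SD). It fell by 0.79 and 0.86 on the log2 scale with and without H2O2 (adjusted p 1.65e-15 and 2.38e-17). Anxa8, a gene of stratified epithelia, averaged 339 ± 22.0 and 588 ± 7.68 CPM in treated knockout and wild-type cells, and 351 ± 18.2 and 595 ± 11.3 CPM in untreated knockout and wild-type cells (SD). It fell by 0.79 and 0.76 (adjusted p 2.24e-15 and 5.76e-16). Anxa7 fell by 0.27 and 0.28 (adjusted p 9.13e-07 and 1.17e-07), and the low Anxa9 fell by 0.59 and 0.61 (adjusted p 0.00153 and 0.000404). Anxa6 was 0.17 higher with H2O2 (adjusted p 0.00740) and at −0.08 without it (adjusted p 0.160). The Anxa6 difference was not shown to depend on treatment, as the interaction test called none of these annexins. Anxa4 (0.06 and 0.07) and Anxa11 (−0.05 and −0.06) were not called. Of all 10 annexins tested, 2 were higher and 5 lower under H2O2, and 1 (Anxa1) was higher and 5 lower without treatment. The shares called, 70.0% and 60.0%, were near those over all genes, 65.4% and 66.8%. Anxa10 and Anxa13 were too low to test.

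Among S100 genes outside the set, S100a7a, of the psoriasin group, was scarce and lower. It had 12 counts in treated knockout against 87 in treated wild-type libraries, a ratio of 0.199 (95% exact binomial interval 0.0989 to 0.365, adjusted p 2.33e-06). It had 16 counts in untreated knockout against 79 in untreated wild-type libraries, a ratio of 0.204 (0.111 to 0.353, adjusted p 7.07e-07). S100a7a passed the filter on low counts only through the wild-type libraries, where it was high. S100a8, a calprotectin subunit of neutrophils, was called lower without treatment (adjusted p 0.0131), at 1.15 to 1.78 CPM in knockout libraries against 29.4, 3.54, 2.85 and 2.93 CPM in wild-type libraries. The 29.4 CPM belonged to replicate 9, and the ratio was 0.141 (0.110 to 0.179) with that library and 0.441 (0.331 to 0.586) without it, where the adjusted p was 3.00e-05. Its partner subunit S100a9 had 750 counts in replicate 9 and 0 in the other 14 libraries. In treated cells S100a8 had 1.06 to 1.32 CPM in knockout and 2.23 to 3.67 CPM in wild-type libraries, without overlap. The adjusted p there was 0.320 in the fit of all groups and 7.17e-06 without untreated libraries 9 and 4. S100a3 and S100pbp, a gene for an S100P-binding protein, were not called, and S100a5, S100a14, S100b, S100g and S100z were too low to test. S100a9, with counts in replicate 9 alone, did not pass the filter on low counts.

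Genes whose products bind or sense S100 proteins and annexins moved in both directions. Of 18 tested receptors and partners, 5 were higher and 8 lower with H2O2 (median log2 −0.13), and 6 were higher and 10 lower without it (median −0.18). The share called was 72.2% with H2O2, near the 65.4% of all genes, and 88.9% without it, beside 66.8% of all genes. No gene of this list met the rule for naming, a called change of at least 2-fold at 5 CPM or more, and those given here were chosen after their values were seen. Plgrkt, a plasminogen receptor, averaged 17.6 ± 2.16 CPM in untreated knockout and 31.1 ± 3.17 CPM in untreated wild-type cells (SD, n = 4 each, log2 −0.82, adjusted p 4.66e-09). The scaffold Ahnak, which binds the annexin A2 complex, stood at −0.35 and its relative Ahnak2 at −0.78 (adjusted p 8.01e-05 and 3.84e-11). The plasminogen activator gene Plat was higher by 0.40 (adjusted p 6.43e-05), the S100A4 partner Myh9 by 0.22 (adjusted p 3.44e-05) and the S100A6 partner Cacybp by 0.28 (adjusted p 7.21e-06). Ager, the receptor for many secreted S100 proteins, averaged 0.440 ± 0.231 CPM in untreated knockout and 1.02 ± 0.357 CPM in untreated wild-type cells (SD, n = 4 each). The formyl peptide receptor genes Fpr1, Fpr2 and Fpr3, receptors of annexin A1, were too low to test.

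Genes of calcium-triggered membrane repair, a process that recruits annexins to wounds, were called more often lower than higher. Of 18 tested, 4 were higher and 12 lower with H2O2 (median −0.20), and 4 were higher and 13 lower without it (median −0.18), and 88.9% and 94.4% of the list were called in the 2 settings, beside 65.4% and 66.8% of all genes. Of all genes 32.4% were lower with H2O2 and 32.9% without it, and the list was not tested against them. Again none met the naming rule, and the following were chosen after their values were seen. The calpain Capn1 averaged 117 ± 9.51 CPM in untreated knockout and 223 ± 10.6 CPM in untreated wild-type cells (SD, n = 4 each, log2 −0.93, adjusted p 3.36e-16). Dysferlin (Dysf) stood at −0.70 (adjusted p 1.54e-13), Capn2 at −0.42 (adjusted p 2.83e-09) and the ESCRT-III subunit Chmp2a at −0.49 (adjusted p 4.87e-11). Caveolin-1 (Cav1) was higher by 0.60 (adjusted p 7.79e-15).

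Other EF-hand genes also moved in both directions. Of 21 tested, 10 were higher and 8 lower with H2O2 (median −0.01), and 10 were higher and 7 lower without it (median 0.07). Of all genes 33.0% were higher and 32.4% lower with H2O2, and 33.9% and 32.9% without it. Neuronal calcium sensor 1 (Ncs1) averaged 37.9 ± 3.17 CPM in untreated knockout and 8.06 ± 0.644 CPM in untreated wild-type cells (SD, n = 4 each, log2 2.24, adjusted p 5.47e-20). Efhd1, a mitochondrial EF-hand protein, averaged 1.09 ± 0.275 and 5.79 ± 0.227 CPM in the same groups (log2 −2.40, adjusted p 4.18e-12). Lcp1, or L-plastin, an actin bundler of leukocytes and carcinoma cells, had 1 count in untreated knockout and 1321 in untreated wild-type libraries, a ratio of 0.000764 (95% exact binomial interval 1.93e-05 to 0.00426). Without replicate 9 it had 1 and 860 counts. Lcp1 passed the filter on low counts only through the wild-type libraries, where it was high. Its interval, like the other binomial intervals given here, covers counting error only.

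**Figure D5:**
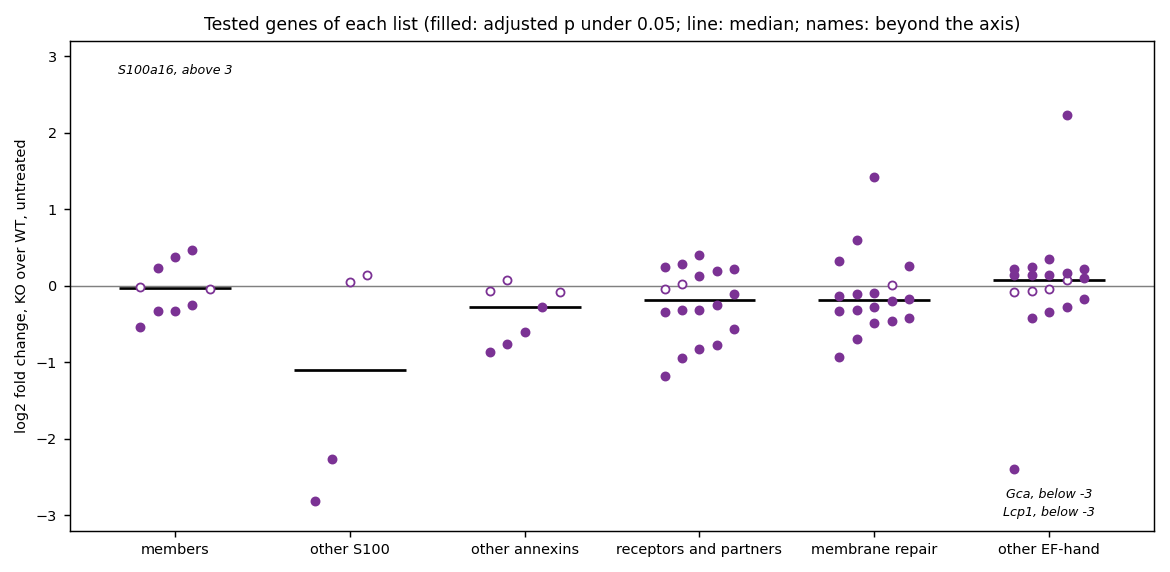
Log2 fold change of knockout over wild type without treatment (vertical axis) for each tested gene (points, filled where the adjusted p was under 0.05) of the 10 S100 and annexin genes, the other S100 genes, the other annexins, the receptors and partners, the membrane repair genes and the other EF-hand genes, with the list median as a line; S100a16, Gca and Lcp1, beyond the axis, are named at its edge. The medians lie at −0.03 for the 10 genes, −1.10 for 4 genes of the other S100 list, −0.28 for 7 other annexins, −0.18 for partners, −0.18 for membrane repair and 0.07 for EF-hand genes. The other S100 list includes S100pbp, a gene for an S100P-binding protein, and S100a8, whose log2 fold change is −1.18 without replicate 9.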

How the data were processed

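RNA of 15 libraries was sequenced as read pairs from TruSeq Stranded mRNA libraries, per the labels' protocols. The authors deposited expected counts per gene symbol and RPKM, made with cutadapt, STAR and RSEM on mm10 per the submitters' processing notes. Settings, versions and annotation are not given in the sources used here. The deposited expected counts were already whole numbers and were used as they stand. All 55341 symbols were found in GENCODE M21 (GRCm38).

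Of these, 13085 genes holding 99.917% of counts passed edgeR's filterByExpr. One quasi-likelihood model of the 4 groups was fitted with edgeR 4.0.16 in R 4.3.3 (TMM scaling, robust dispersion, 11 residual degrees of freedom, limma 3.58.1), with Benjamini-Hochberg adjustment over every gene in the fit. The common biological coefficient of variation was 4.958%, at which small differences pass. The SE is approximate, the log2 fold change over the square root of the F statistic. RPKM, per length, served only for order and ratio. Simulated counts served as a check of the fit.

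The 10 genes and all lists were chosen with earlier results of these data known. All members are named; of other lists, other S100 genes and annexins at 0.5 CPM or more, genes called with at least 2-fold change at 5 CPM or more (at most 5 each way per list), and neighbours called with at least 2-fold change. Genes outside this rule are marked. Alternatives were other scalings, no filter, DESeq2 1.42.0, limma-voom, 2-group fits and leaving out each library. The stranded kit marks strand, but the counting setting is not given, so reads of Anxa2 and Anxa1 cannot be told from those of overlapping transcripts on the other strand. S100a4, Anxa2 and Anxa5 overlap Gm42674, Mir3109 and Mir7009 in turn on their own strand, which strand cannot separate. The transcripts that overlap S100a4, Anxa2 and Anxa1 had at most 13 counts in any library. No per-library column was left without a sample.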

Additional observations from a re-analysis of the deposited data

Results flagged for a closer look

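In groups of 4 libraries, 7 of 61 groups examined among the S100, annexin and related genes held a library far from the other 3 by Dixon's 95% criterion, where chance gives about 1 in 20.

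Of these, 3 belong to untreated wild-type replicate 9. S100a9 stood at 50.63 CPM there and at 0.0 in the other 3 libraries, S100a8 at 29.36 CPM against 2.852 to 3.542, and S100a11 at 485.0 CPM against 449.2 to 451.0. The same library held 305 counts of Mpo, 288 of Lyz2, 96 of Itgam and 33 of Elane, where the other 3 held at most 1, 2, 23 and 1. The part of these transcripts in its S100a11 value was not tested. Without the library S100a11 fell by 0.30 on the log2 scale in untreated knockout cells (adjusted p 5.99e-05), and with it by 0.33.

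In untreated knockout cells S100a16 stood at 11.08 CPM in replicate 4, against 8.283 to 8.544 in the other 3. That library was also above the other 3 for S100a1, S100a6, S100a10, S100a11 and Anxa2, and below them for Anxa1. S100a13 stood at 15.63 CPM in replicate 3, against 18.55 to 18.92.

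In treated wild-type cells Anxa3 stood at 257.8 CPM in replicate 13, against 243.1 to 244.2, and S100pbp at 51.45 CPM in replicate 15, against 44.64 to 45.19.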

How the results depend on the processing

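No paired analysis was possible because no replicate number is shared between groups. For the 10 genes, the side of the threshold was kept in 150 of 150 values for knockout against wild type without treatment, 139 of 140 with H2O2, 149 of 149 for H2O2 in wild type, 136 of 137 for H2O2 in knockout and 208 of 208 for the interaction, and no called direction reversed. The exceptions were S100a6 without the treated knockout replicate 7 (log2 0.10, adjusted p 0.120) and S100a11 for H2O2 in knockout cells by DESeq2 (log2 −0.20, adjusted p 0.0442). The latter made 1 gene lower in place of 0. DESeq2 gave no adjusted p to 9640 of the 13085 genes in that comparison, so its adjustment covered fewer genes than that of edgeR. The part of this in the S100a11 call was not tested. The log2 estimate of S100a16 without treatment ranged from 5.94 to 8.19, 8.19 being the value without replicate 9 of untreated wild type. S100a8 lost its untreated call with only the 2 groups in the fit (adjusted p 0.0734) and gained one under H2O2 in that fit (adjusted p 9.84e-06). Anxa4 gained an untreated call in 4 alternatives, Anxa11 in 3 and S100pbp a treated call in 1. Leaving out replicate 9 of untreated wild type and replicate 4 of untreated knockout together, chosen after seeing the data, changed no call of the 10 genes.

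Counts over all genes for H2O2 moved. Those by DESeq2 cover only the genes to which it gave an adjusted p. In knockout cells 7 were called, against 53 by DESeq2, 27 without the filter, 0 without treated knockout replicate 8 and 18 without untreated knockout replicate 3. In wild-type cells 2 were called, against 9 by DESeq2, 12 without the filter and 0 by limma-voom, and 0 to 13 with 1 library left out. For the interaction 0 were called, against 15 by DESeq2, 5 without the filter and 3 by limma-voom, and 0 to 3 with 1 library left out. Depth limits S100a16 in wild type, S100a7a and Ager, each under 2 CPM, and Ivl and Lce1g in untreated knockout cells.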
